A study of Rattus norvegicus with 6 samples.

Results

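The transcription factors described here are 10 genes that mark or maintain the cell identities of prostate epithelium, namely Foxa1, Foxa2, Gata3, Sox2, Sox9, Tp63, Ehf, Elf3, Grhl2 and Klf4. They were taken from the deposited expression table by gene symbol, and all 10 were found among its 32883 genes. Prostate tissue of rats was sequenced in 6 RNA libraries. The hormone group (n = 3) carried 4 pellets under the skin for 4 weeks, each pellet holding 25 mg of testosterone and 2.5 mg of estradiol. The control group (n = 3) had the skin cut and stapled and received no pellet. The labels used here name no strain, age or prostate lobe, and one label field gives benign prostatic hyperplasia for the controls as well. Nothing in the labels says that the 3 tissues of a group came from separate animals, so p-values here reflect how much these tissues vary, which may be technical.

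Prostate glands are lined by luminal secretory cells resting on a layer of basal cells, with scattered neuroendocrine cells between them. Foxa1, a forkhead factor that opens chromatin, is known from luminal cells, and Gata3 is a zinc finger factor of luminal epithelium. Tp63 encodes p63, which defines the basal layer. Sox9 and Sox2 are known from mouse prostate buds and from subsets of basal and neuroendocrine cells. The ETS factors Ehf and Elf3, the grainyhead factor Grhl2 and the Krüppel-like factor Klf4 act in the differentiation and cohesion of many epithelia.

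In the edgeR test between the groups none of the 9 factors with enough counts passed, and Foxa2 had too few. The smallest p was that of Grhl2, whose level was 0.620 times the control level under the pellets, and Sox2 showed a difference of like size from far fewer reads. Both were lower in each hormone library than in each control library. The luminal factor Foxa1 and the ETS factor Ehf had group means that differed little. Of the 9 members that passed the low-count filter, 0 were called at an edgeR adjusted p under 0.05, where 3.27% of the 14003 genes tested were called (0.886% lower and 2.39% higher in hormone libraries). At an unadjusted p under 0.05 there were 2 of 9 (Grhl2 and Sox2), against 22.8% of all genes tested. The values of the groups did not overlap, with hormone lower, for 2 of the 9, against 15.3% of all genes, and with hormone higher for 0 of the 9, against 16.1%. The median log2 fold change of the 9 was 0.13, against -0.0015 over all genes tested, and 6 of the 9 were positive, against 49.9% of all genes. With DESeq2, 1 of the 10 was called, namely Grhl2, which was lower (3.68% of genes with an adjusted p were called lower by that tool).

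**Figure D1:**
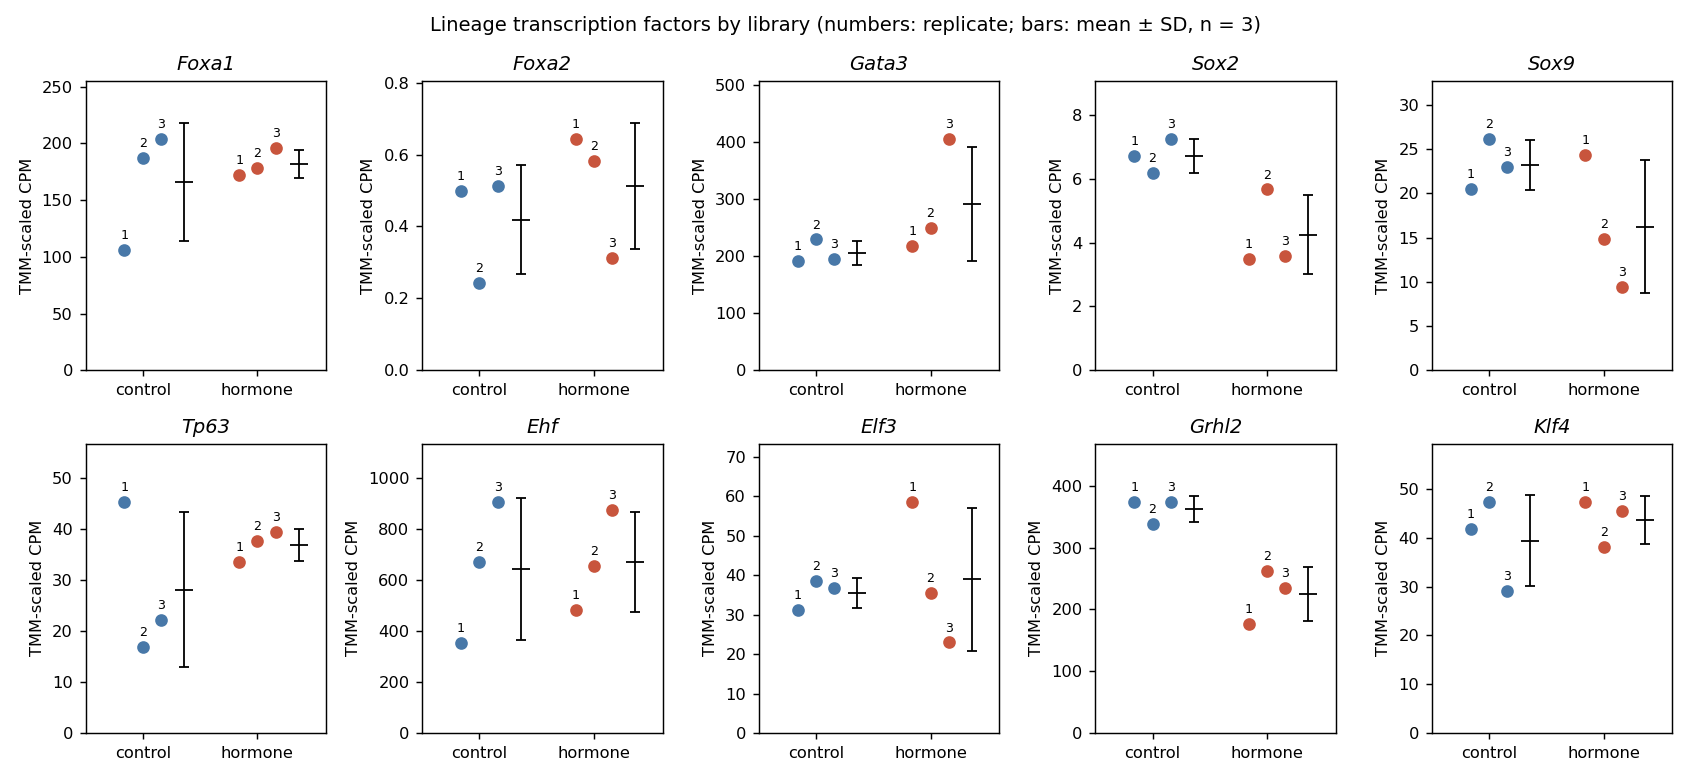
Level of each of the 10 factors (vertical axis, TMM-scaled CPM) in the control and hormone libraries, with points numbered by replicate and bars for mean ± SD (n = 3). Grhl2 and Sox2 are lower in every hormone library than in any control, while the other 8 factors overlap between the groups.

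The promoter windows that RefSeq gives (GRCr8, 250 bases before to 50 after a gene's start) matched 6 of the 10 members, namely Foxa2, Gata3, Sox2, Tp63, Elf3 and Klf4. The windows of Sox2, Gata3 and Tp63 are shown because these had the largest fold changes in size among the matched and tested members. The letters searched on both strands were AGAACA (a half-site of the androgen response element), GGTCA (a half-site of the estrogen response element), TGTTTNC (forkhead) and CCAAT (the CCAAT box), and capitals mark each match on either strand. No 2 matches overlap in these 3 windows. The Sox2 window lies on the plus strand at chr2:119464881-119465180, that of Gata3 on the plus strand at chr17:73553298-73553597 and that of Tp63 on the minus strand at chr11:88554128-88554427. Tp63 is known to start at more than 1 promoter, and the counts do not separate its isoforms.
Sox2: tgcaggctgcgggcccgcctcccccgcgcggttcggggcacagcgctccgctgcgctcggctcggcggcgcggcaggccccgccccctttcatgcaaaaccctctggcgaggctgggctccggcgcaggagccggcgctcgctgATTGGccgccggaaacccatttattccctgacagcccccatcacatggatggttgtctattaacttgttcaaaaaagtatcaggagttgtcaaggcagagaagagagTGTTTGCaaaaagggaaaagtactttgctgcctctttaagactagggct
Gata3: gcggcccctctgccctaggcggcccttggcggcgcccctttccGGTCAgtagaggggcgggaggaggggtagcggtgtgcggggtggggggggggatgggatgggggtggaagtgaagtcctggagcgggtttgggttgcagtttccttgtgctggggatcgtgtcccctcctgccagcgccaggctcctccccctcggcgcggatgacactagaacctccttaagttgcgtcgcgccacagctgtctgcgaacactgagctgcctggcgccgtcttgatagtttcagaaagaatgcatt
Tp63: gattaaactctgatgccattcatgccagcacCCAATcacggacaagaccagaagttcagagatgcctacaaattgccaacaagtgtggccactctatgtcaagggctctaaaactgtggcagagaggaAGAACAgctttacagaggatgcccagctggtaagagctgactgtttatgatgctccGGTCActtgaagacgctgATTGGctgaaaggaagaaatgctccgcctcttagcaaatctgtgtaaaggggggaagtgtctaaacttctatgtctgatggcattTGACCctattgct

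The Sox2 window held 1 forkhead match and 1 CCAAT match and neither hormone half-site. That of Gata3 held 1 estrogen half-site and none of the other letters. In the Tp63 window there were 1 androgen half-site, 2 estrogen half-sites and 2 CCAAT matches. Such short letters are common: AGAACA occurred in 20.7%, GGTCA in 40.5%, TGTTTNC in 21.1% and CCAAT in 37.5% of 33469 windows of the same length. These matches describe the letters and show nothing about binding.

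The factors covered a wide range of levels. Ranked by mean FPKM (fragments scaled to gene length and library size, the authors' values, which can be compared between genes) over all 6 libraries, Ehf stood first at 261 ± 80.5 (SD, n = 6 libraries), above 98.3% of the genes tested. Foxa1 followed at 107 ± 19.6, Gata3 at 92.2 ± 25.1 and Grhl2 at 52.0 ± 16.6. Elf3 had 18.2 ± 5.67 and Klf4 17.6 ± 3.12, Sox9 5.83 ± 2.02, Tp63 3.69 ± 1.29 and Sox2 2.38 ± 0.78. Foxa2 came last at 0.209 ± 0.07. Foxa1 and Gata3 were not separable in this order, with Foxa1 higher in 4 of 6 libraries, nor were Elf3 and Klf4 (3 of 6), Sox9 and Tp63 (5 of 6) or Tp63 and Sox2 (4 of 6). The ranges of all other neighbours did not overlap. The Tp63 level depends on the gene length behind the FPKM, which was 8808 bases.

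Foxa1 was expressed at similar levels in both groups. Its level (CPM after TMM library scaling, used for all levels below unless FPKM is named) was 106, 187 and 204 in controls 1 to 3. Hormone libraries 1 to 3 had 172, 178 and 196. Control 1 was far below the other 5 libraries, which lay close together. The log2 fold change (hormone minus control throughout) was 0.13 ± 0.23 (SE), with a 95% interval of -0.41 to 0.68 (edgeR adjusted p = 0.762). Without control 1 the estimate turned to -0.10 (adjusted p = 0.588). In the table's coordinates, whose genome build no source used here names, Foxa1 (ENSRNOG00000009284) spans 78545804 to 78549669 of chromosome 6.

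Foxa2, the related forkhead factor of prostate buds and neuroendocrine cells, was close to the limit of detection. It had 7, 4 and 8 counts in controls 1 to 3 and 10, 8 and 4 counts in hormone libraries 1 to 3, too few for the main test. A level of 3 counts corresponds to 0.188 to 0.232 CPM of the library total in these libraries. DESeq2, which kept the gene, gave a log2 fold change of 0.31 (adjusted p = 0.885). The list of neuroendocrine markers was sparse too. Of 9 markers in the table, Neurod1 and Calca had 0 counts in all libraries and 5 were tested, of which 0 passed and all 5 had a negative fold change. Chga, chromogranin A, had 36 counts in the controls together and 13 in the hormone libraries together. The summed neuroendocrine level was 7.64 to 23.1 CPM in the controls and 4.44 to 9.30 CPM in hormone libraries, highest in control 2.

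Gata3 had the highest positive fold change of the 9 tested and did not pass. The 3 controls held 192, 229 and 195 CPM and the hormone libraries 218, 249 and 405 CPM. Hormone 3 stood above all other libraries, and hormone 1 lay below control 2. Its log2 fold change was 0.50 ± 0.23 (95% interval -0.05 to 1.05, edgeR adjusted p = 0.251), and 0.20 without hormone 3 (adjusted p = 0.562). Gata3 also acts in T cells. The T cell list summed to 28.3 to 54.3 CPM in the controls and 58.9 to 107 CPM in hormone libraries, the fold change was positive for all 6 markers tested and 0 passed. The T cell sum was highest in hormone 1, where Gata3 was lowest among the hormone libraries, and the part of T cells in the Gata3 values was not tested. In bulk tissue, fewer cells of a type and less RNA per cell cannot be told apart. Gata3 (ENSRNOG00000019336) lies on chromosome 17 at 72429618 to 72450681.

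Sox2 was low in all libraries and lower under the pellets. Controls 1 to 3 held 94, 102 and 113 counts, or 6.71, 6.20 and 7.25 CPM. Hormone libraries 1 to 3 held 54, 78 and 46 counts, or 3.48, 5.67 and 3.59 CPM. The groups did not overlap, although hormone 2 came near control 2. For Sox2 the log2 fold change was -0.66 ± 0.25 (95% interval -1.25 to -0.07, edgeR adjusted p = 0.183), and it was negative in every alternative fit, from -0.92 to -0.53. Sox2 and its relative Sox10 are also known from glial cells of nerves. In the Schwann cell list Sox10 had 6.80 ± 1.97 CPM in the controls and 3.21 ± 0.96 CPM in hormone libraries (adjusted p = 0.122, and 0.0459 with DESeq2). The sum over the 6 markers was 123 to 192 CPM in the controls and 162 to 211 CPM in hormone libraries. One member of that list was called, the neuregulin receptor Erbb3, which epithelium also expresses and which rose from 63.3 ± 12.3 to 119 ± 8.68 CPM (adjusted p = 0.0305). Without any 1 hormone library or control 2, Erbb3 did not pass (adjusted p up to 0.127), nor did it with the replicate number as a block (0.0575), with limma (0.0688 and 0.0614) or under luminal scaling (0.0775). The part of nerve cells in the Sox2 values was not tested. Sox2 (ENSRNOG00000012199) spans 121165137 to 121167545 of chromosome 2.

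Sox9 differed more among the hormone libraries than between the groups. It had 20.5, 26.2 and 23.0 CPM in the controls and 24.4, 14.9 and 9.45 CPM in hormone libraries. Hormone 1 lay within the control range and hormone 2 and 3 lay below it. Its fold change on the log2 scale was -0.51 ± 0.32 (95% interval -1.25 to 0.23, edgeR adjusted p = 0.369), and it ranged from -0.93 without hormone 1 to -0.23 without hormone 3. Sox9 (ENSRNOG00000002607) lies on chromosome 10 at 101288489 to 101293379. The FPKM ratio of Sox2 to Sox9 was 0.481, 0.348 and 0.465 in the controls and 0.210, 0.560 and 0.560 in hormone libraries, so the groups overlapped.

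Tp63 was the member that depended most on a single library. Control 1 held 45.5 CPM, the highest of all 6 libraries, while controls 2 and 3 held 16.9 and 22.1 CPM. The hormone libraries were tightly grouped at 33.5, 37.7 and 39.5 CPM, between control 1 and the other controls. Over all libraries the log2 fold change was 0.39 ± 0.34 (95% interval -0.40 to 1.18, edgeR adjusted p = 0.514). Without control 1 it was 0.92 and passed (adjusted p = 0.0418), in a fit that called 2.2% of all genes higher. Without control 2 it was 0.13 (adjusted p = 0.836). Tp63 (ENSRNOG00000001924) spans 78234800 to 78456501 of chromosome 11.

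Control 1 also had the highest sums for the markers of basal and stromal cells. The basal list summed to 1346 CPM there, against 954 and 1133 CPM in controls 2 and 3 and 1116 to 1182 CPM in hormone libraries. The stromal list, made of smooth muscle and matrix genes, summed to 13643 CPM in control 1, 9744 and 6615 CPM in the other controls and 6923 to 8712 CPM in hormone libraries. The same library had the lowest Foxa1 and Ehf and the highest Tp63. Whether the tissue piece of control 1 held a different mixture of cells was not tested.

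**Figure D2:**
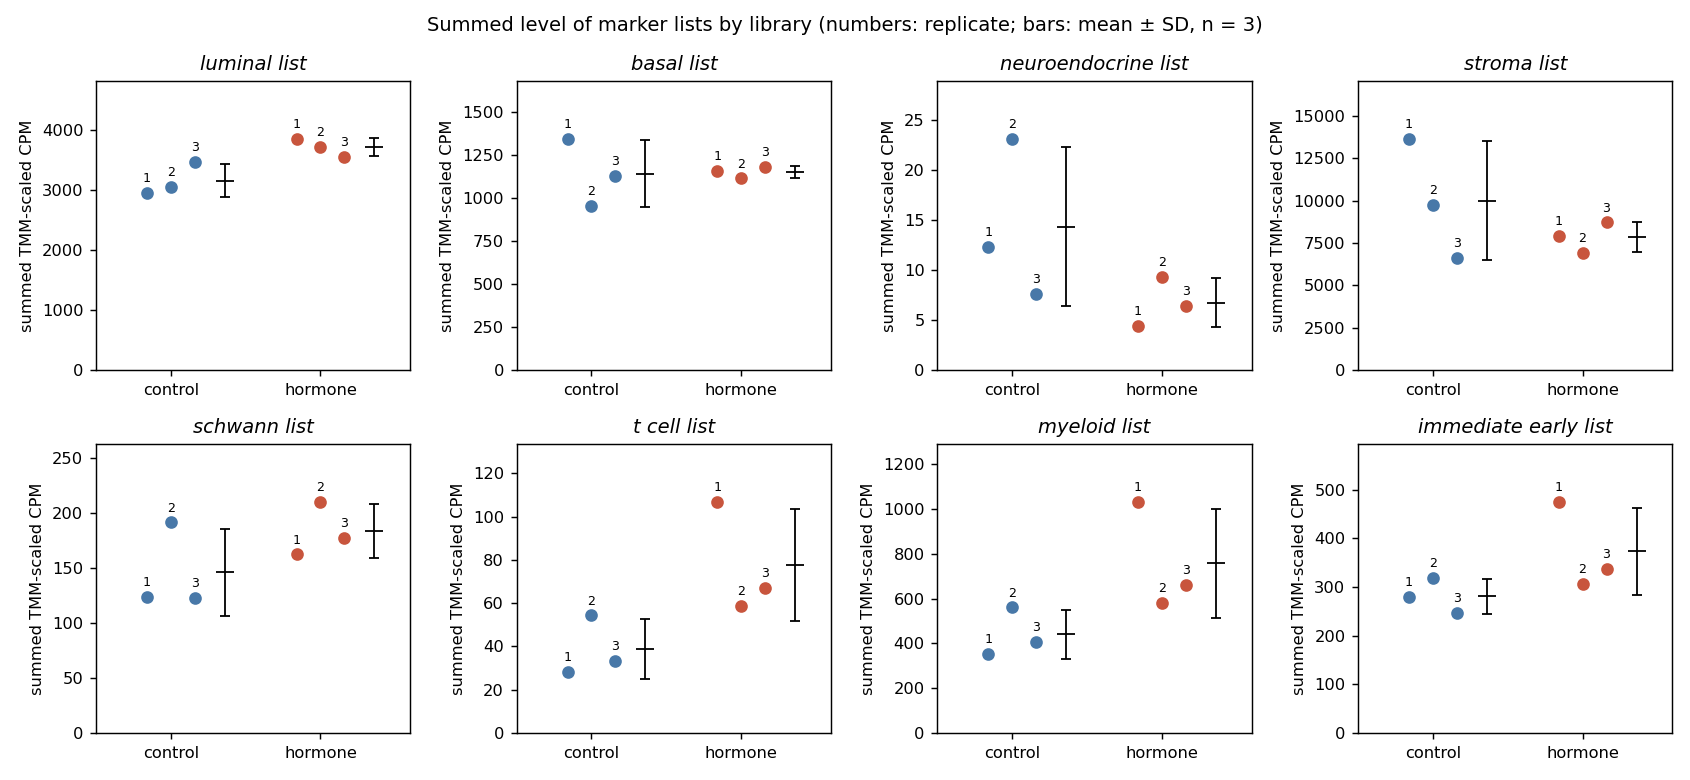
Summed level of 8 marker lists (vertical axis, TMM-scaled CPM) by library, with points numbered by replicate and bars for mean ± SD (n = 3). Control 1 has the highest basal and stromal sums, hormone 1 the highest T cell, myeloid and immediate early sums, and the luminal sum is higher in every hormone library than in any control.

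Of the 10 basal markers, all tested, 0 passed, 7 had a positive fold change as Tp63 did, and the median was 0.26. In 4 of them every hormone library was above every control, and in 0 of them below, against 16.1% above and 15.3% below over all genes tested. DESeq2 called 2 of the 10 higher, where it called 904 of the 15976 genes with an adjusted p higher. Krt17, a basal keratin, had 14.7, 3.52 and 5.78 CPM in controls 1 to 3 and 12.1 to 16.0 CPM under the pellets, and like Tp63 it passed without control 1 (edgeR adjusted p = 0.0401, against 0.354 with all libraries). Of the other basal keratins, Krt5 was at 187 ± 73.6 CPM in the controls and 113 ± 28.3 CPM in hormone libraries (log2 fold change -0.72, edgeR adjusted p = 0.213) and its partner Krt14 was at 52.0 ± 31.7 and 73.4 ± 15.5 CPM (0.50, adjusted p = 0.484). Krt15 was lower too, at 326 ± 69.2 CPM in the controls and 197 ± 76.2 CPM in hormone libraries (-0.73, edgeR adjusted p = 0.204). Krt5 and Krt14 were both highest among the controls in control 1, at 266 and 87.6 CPM. Of the 12 genes tested that are known as p63 targets, 6 of which also belong to the basal list, 0 passed, with 6 positive fold changes and a median of -0.02. Itga3, an integrin chain, had the smallest p of these, at 41.9 ± 2.48 and 56.7 ± 5.58 CPM (adjusted p = 0.0872). With DESeq2 3 of the 12 were called higher, Itga3 among them (adjusted p = 0.0296).

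Ehf, the most abundant of the 10, varied strongly between libraries in both groups. Its level was 352, 670 and 907 CPM in the controls and 482, 655 and 873 CPM in hormone libraries. The ranges lay almost on top of each other. For Ehf the log2 fold change was 0.06 ± 0.36 (95% interval -0.77 to 0.89, edgeR adjusted p = 0.940). The 6 libraries took the same order in Ehf as in Foxa1, from control 1 as the lowest through hormone 1, hormone 2, control 2 and hormone 3 to control 3 as the highest, an order noticed after the values were seen. Ehf (ENSRNOG00000007484) spans 93178163 to 93216495 of chromosome 3.

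Elf3, the other ETS factor, spread more among the hormone libraries than among the controls. Controls held 31.3, 38.6 and 36.7 CPM and hormone libraries 58.7, 35.5 and 23.0 CPM. Hormone 1 was above and hormone 3 below all controls. The log2 fold change was 0.14 ± 0.31 (95% interval -0.58 to 0.86, edgeR adjusted p = 0.821), and it turned to -0.28 without hormone 1. Hormone 1, with the highest Elf3 of all libraries and the highest Sox9 of its group, also had the highest myeloid sum, 1033 CPM against 580 and 659 CPM in the other hormone libraries and 354 to 561 CPM in controls. All 6 myeloid members had a positive fold change and 0 passed. DESeq2 called 2 of the 6 higher, namely Cd68 and Csf1r (adjusted p = 0.00494 and 0.0294). That tool called 904 of the 15976 genes with an adjusted p higher. The part of myeloid cells in the Elf3 values was not tested. The FPKM ratio of Elf3 to Ehf was 0.0492 to 0.108 in the controls and 0.0320 to 0.148 in hormone libraries. Elf3 (ENSRNOG00000006330) lies on chromosome 13 at 52083859 to 52088780.

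Klf4 was the least variable of the 10, with the highest library 1.63 times the lowest. It had 41.8, 47.4 and 29.1 CPM in the controls and 47.4, 38.1 and 45.6 CPM in hormone libraries, and the groups overlapped. The log2 fold change was 0.15 ± 0.19 (95% interval -0.30 to 0.60, edgeR adjusted p = 0.674). Klf4 also responds quickly to serum and stress. The 8 genes of the immediate early list all had a positive fold change and 0 passed, and their sum was 246 to 318 CPM in the controls and 307 to 475 CPM in hormone libraries. Klf4 (ENSRNOG00000016299) spans 72283313 to 72287669 of chromosome 5. Its relative Klf5, an epithelial factor, had 32.5, 52.5 and 37.0 CPM in the controls and 122, 52.0 and 59.9 CPM in hormone libraries (log2 fold change 0.94, adjusted p = 0.164).

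Grhl2 gave the most regular difference. Controls 1 to 3 held 374, 338 and 374 CPM and hormone libraries 1 to 3 held 177, 262 and 235 CPM. Every hormone library was below every control, with a gap between the groups that was wider than the whole control range. The log2 fold change was -0.69 ± 0.16, with a 95% interval of -1.07 to -0.31 (edgeR adjusted p = 0.0682). In the order of p over all genes tested Grhl2 was number 715, and 458 genes were called. The fold change was negative in all 14 alternative fits, from -0.89 to -0.54, with adjusted p values of 0.00302 (DESeq2) to 0.178. Grhl2 (ENSRNOG00000007000) spans 76059386 to 76197856 of chromosome 7.

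**Figure D3:**
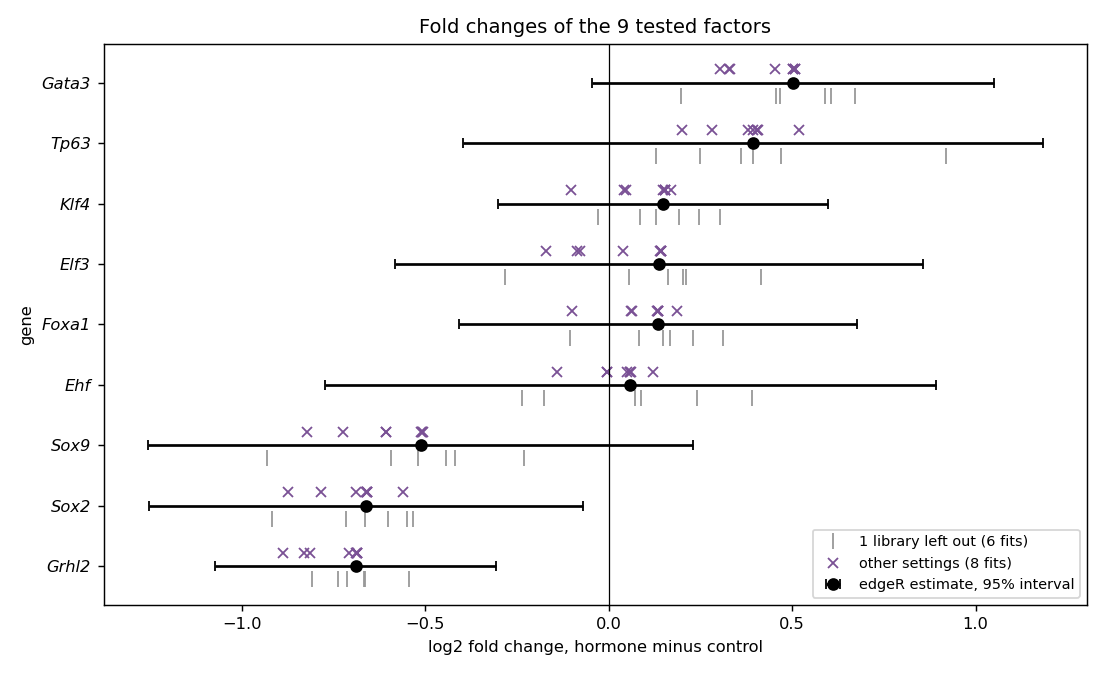
Log2 fold change of the 9 tested factors (horizontal axis, hormone minus control), with the edgeR estimate and its 95% interval in black, fits without 1 library as grey bars and the other settings as crosses. The intervals of Grhl2 and Sox2 lie below 0 before adjustment for the number of genes, and those of the other 7 factors include 0.

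Of the 10 genes listed as known targets of Grhl2, all tested and 3 of them also luminal markers, 0 passed, 8 had a positive fold change and the median was 0.29, against -0.0015 for all genes. Cdh1, the adhesion molecule E-cadherin, was at 267, 302 and 344 CPM in the controls and 414, 402 and 387 CPM in hormone libraries (log2 fold change 0.40 ± 0.13, edgeR adjusted p = 0.145). Epcam, the epithelial cell adhesion molecule, had 391, 467 and 482 CPM and then 692, 639 and 568 CPM (0.50 ± 0.15, adjusted p = 0.11). The membrane protease St14 had 154 ± 24.4 and 220 ± 10.6 CPM (adjusted p = 0.0947). For these genes and Prom2, which had 5.53 ± 6.96 and 26.7 ± 12.2 CPM (adjusted p = 0.175), every hormone library was above every control. The tight junction gene Cldn3 and the trafficking gene Rab25 were at -0.07 and -0.22 on the log2 fold scale (adjusted p = 0.755 and 0.392). Esrp1 and Esrp2, the epithelial splicing regulators, had 0.11 and 0.18 (adjusted p = 0.676 and 0.432). With DESeq2, Epcam and St14 were called higher (adjusted p = 0.018 and 0.0265).

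**Figure D4:**
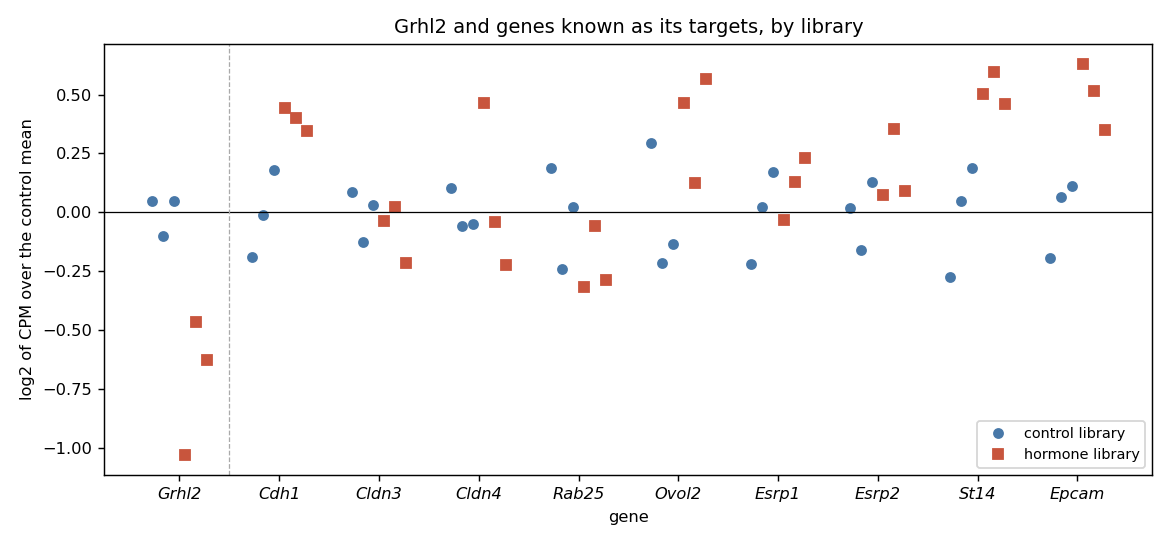
Level of Grhl2 and of 9 genes known as its targets in each library, as log2 of the CPM over the control mean (vertical axis), with circles for control and squares for hormone libraries. Grhl2 lies below its controls in each hormone library, while Cdh1, St14 and Epcam lie above theirs. Prom2, whose controls spread from 0.972 to 13.5 CPM, is not drawn.

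Grhl1, a close relative of Grhl2, ran the other way. It had 10.6, 26.0 and 28.7 CPM in the controls and 28.9, 34.9 and 38.0 CPM in hormone libraries (log2 fold change 0.64 ± 0.34, edgeR adjusted p = 0.306). On the FPKM scale the ratio of Grhl1 to Grhl2 was 0.103, 0.278 and 0.277 in the controls and 0.590, 0.482 and 0.585 in hormone libraries. Grhl2 had the higher FPKM of the pair in each library. Grhl3, the remaining family member, had 59 counts in the controls together and 42 in the hormone libraries together.

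The GATA pair showed a similar arrangement. Gata2, a relative of Gata3, had 860, 839 and 943 CPM in the controls and 533, 759 and 506 CPM in hormone libraries (log2 fold change -0.55 ± 0.19, edgeR adjusted p = 0.145). The FPKM ratio of Gata3 to Gata2 was 0.286, 0.350 and 0.264 in the controls and 0.525, 0.420 and 1.02 in hormone libraries. It was higher in each hormone library than in any control, and hormone 3 alone had more Gata3 than Gata2. Of the other ratios computed, that of Klf5 to Klf4 did not overlap either. It was 0.502, 0.717 and 0.824 in the controls and 1.67, 0.883 and 0.850 in hormone libraries. Those of Elf5 to Ehf and of Foxa2 to Foxa1 overlapped. These family ratios were computed after the values were seen and were not tested.

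**Figure D5:**
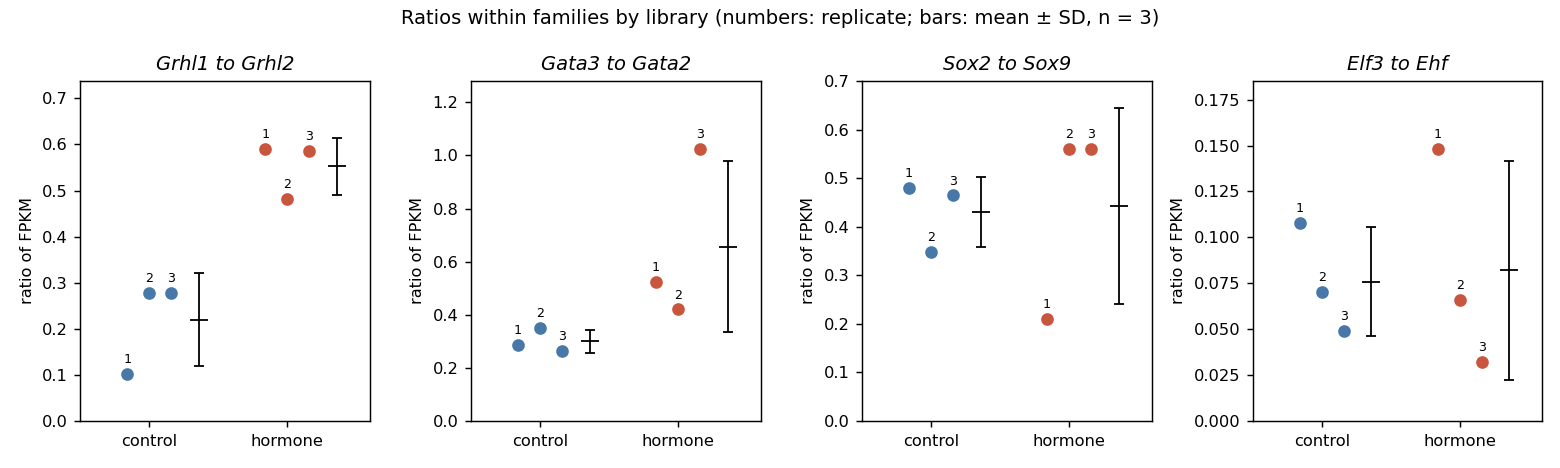
Ratio of FPKM between relatives (vertical axis) in each library, with points numbered by replicate and bars for mean ± SD (n = 3). The ratios of Grhl1 to Grhl2 and of Gata3 to Gata2 do not overlap between the groups, whereas those of Sox2 to Sox9 and of Elf3 to Ehf do.

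By Pearson correlation of log2 CPM over the 6 libraries, the genes most like Grhl2 were Prdx6, Enoph1 and Cib2 (0.997 for each), and those most like Sox2 were Arse (0.997), Gata2 (0.994) and Plxna3 (0.994). These points share the libraries and their scaling, and with 6 of them such values describe likeness only. Prdx6, a peroxiredoxin, was the 1 gene of these 6 that passed, falling from 751 ± 89.6 to 313 ± 99.7 CPM (edgeR adjusted p = 0.0461). Without any 1 library Prdx6 did not pass (adjusted p from 0.0711 to 0.127). The other 5 had log2 fold changes from -1.65 (Cib2) to -0.19 (Arse).

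Other factors of prostate and epithelial identity gave no calls in the main edgeR test. Of 17 tested from a list of 20, 0 passed, 9 had a positive fold change and the median was 0.00051. The values did not overlap for 2 higher and 5 lower genes of the 17, against 16.1% higher and 15.3% lower over all genes tested. Hoxb13, a positional factor of the prostate, had 316 ± 61.0 CPM in the controls and 231 ± 24.8 CPM in hormone libraries (edgeR adjusted p = 0.174), and the ETS factor Spdef had 116 ± 3.99 and 90.2 ± 11.7 CPM (adjusted p = 0.144). The smallest p values belonged to Irx3, with 15.9 ± 3.72 and 8.20 ± 1.49 CPM (adjusted p = 0.0719), and to the forkhead gene Foxq1, with 5.08 ± 1.63 and 20.9 ± 15.7 CPM (adjusted p = 0.0809), the latter highest in hormone 1 at 38.9 CPM. Both passed with DESeq2 (adjusted p = 0.00716 and 0.00123) and under luminal scaling (0.00298 and 0.00296). Foxq1 also passed with the replicate number as a block (0.0465), and Gata2 passed with DESeq2 (0.0444).

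All 10 luminal markers were detected and tested, and 1 of them was called. Krt8, the luminal keratin, rose, with 250, 251 and 290 CPM in controls against 548, 525 and 453 CPM under the pellets (log2 fold change 0.95 ± 0.14, edgeR adjusted p = 0.0164). Krt8 was the 1 call among the 10 luminal markers, of which 6 were positive in fold change (median 0.40). Its call was lost without control 2 or any 1 hormone library (adjusted p up to 0.0821). The call was also lost under the scaling described next (0.0829), which Krt8 itself helps to set. Its partner Krt18 had 308 ± 21.5 and 408 ± 12.9 CPM (adjusted p = 0.107), and 0.00485 with DESeq2. That tool called 3 of the 10 higher, and 904 of the 15976 genes with an adjusted p. In the other direction, Muc1, a membrane mucin, had 2.00 ± 0.22 and 0.773 ± 0.26 CPM, lower in every hormone library (log2 fold change -1.35 ± 0.35, adjusted p = 0.0833). Cldn7 and Cd24 were also on the negative side, at -0.36 and -0.23 on the log2 fold scale (adjusted p = 0.213 and 0.408). The luminal sum was 2951 to 3461 CPM in the controls and 3555 to 3850 CPM in hormone libraries. When the libraries were scaled to these luminal genes instead, the median of all genes moved to -0.24 and Grhl2 had -0.89, or -0.65 relative to that median (adjusted p = 0.0268). Under that scaling Muc1 passed (adjusted p = 0.0226), Sox9 passed as well, at -0.82 (adjusted p = 0.0421), Sox2 had -0.87 (adjusted p = 0.0942), and 6.03% of all genes were called lower. Positive fold changes under it numbered 5 of 10 for the Grhl2 targets (median 0.06), 5 of 10 for the basal markers, 4 of 12 for the p63 targets, 5 of 6 for the myeloid list and 4 of 8 for the immediate early list. The genes that set this scale include Krt8, Muc1 and 3 of the Grhl2 targets, so their values under it are no independent check.

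Squamous genes were low. Of 10 in the table, 3 were tested and 0 passed, Sprr1b had 0 counts in all libraries, and the sum was 4.24 to 10.5 CPM in the controls and 9.98 to 12.5 CPM in hormone libraries. Tgm1, the transglutaminase of cornified cells, had 1.07 ± 0.76 and 6.22 ± 2.24 CPM (edgeR adjusted p = 0.0541, DESeq2 adjusted p = 0.00032). It was the 1 gene of the 3 with a positive fold change, and their median was -0.53. Krt10 and Sbsn were on the negative side (edgeR adjusted p = 0.398 and 0.628). Of the 3 progenitor markers tested, 0 passed. In the proliferation list all 5 genes had a positive fold change and 4 were called higher, against 2.39% of all genes tested. Among the 4 was Mki67 (log2 fold change 3.06 ± 0.37, edgeR adjusted p = 0.0109, and 0.0586 without control 2). The count of 4 was 0 without control 2 and 2 without any 1 hormone library.

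Total counts ranged from 12931982 to 15949500 per library. Secreted prostate transcripts were present in every library, and Pbsn was listed at 0 throughout. Of the seminal vesicle markers, Semg1 took 9554 ± 12358 CPM in the controls and 5674 ± 2907 CPM in hormone libraries, while the counts of Pate4 were 3066, 763 and 1 in controls 1 to 3 and 0 in each hormone library. Whether tissue of neighbouring glands was included to a different extent was not tested.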

How the data were processed

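The authors deposited 1 table of unnormalised gene-level counts beside FPKM values for the same 6 libraries, and it held 0 columns of other samples. Per the labels' protocols, libraries were paired-end TruSeq RNA. The tools named are TopHat, Bowtie2 and HTSeq, per the submitters' processing notes. No source used here gives versions, genome build, strand setting or the handling of reads with several matches. The deposited FPKM equalled the count divided by a fixed gene length and the library total (spread of the implied length at most 0.00172% over 10557 genes with at least 50 counts in each library), so FPKM carries no further normalisation.

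The test on counts was that of edgeR 4.0.16 (R 4.3.3, filterByExpr with minimum count 10 and total 15, TMM, robust quasi-likelihood F-test, two-sided, no block). Benjamini-Hochberg adjustment ran over the 14003 genes tested. Calls were made at an adjusted p under 0.05. SE was obtained as the absolute log2 fold change over the root of its F statistic. Levels are TMM-scaled CPM, mean ± SD, n = 3 per group. Total counts were 12931982 to 15949500. Floors and counting cover counting error only. The common biological coefficient of variation was 22.7%.

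The members and gene lists were chosen with earlier results of these data known, so list counts are descriptions and no list was tested. All members are named. Of each list, called genes and up to 4 others with the smallest p could be named, and the nearest genes in pattern were the 3 with the highest correlation to each of the 2 members with the smallest p (log2 CPM, prior count 2). Genes named beyond that (Hoxb13, Klf5, Elf5, Grhl1, Grhl3, Krt14, Krt17, Cldn3, Cldn7, Cd24, Rab25, Esrp1 and Esrp2) were added after their values were seen. The values of some listed genes are not reported here. Alternatives were DESeq2 1.42.0, RLE factors, luminal scaling, other filters, limma 3.58.1 on log2(FPKM + 1) and log2(FPKM + 0.1) for genes with a mean FPKM of at least 0.1, the replicate number as a block, and each library left out. The tests were checked on simulated counts. Replicates differed beyond sampling noise (chi-square per gene 22.3 to 112).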

Additional observations from a re-analysis of the deposited data

How the results depend on the processing

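The count of 0 factors called held in edgeR with RLE factors, both other filters, both limma fits and the replicate block. DESeq2 called 1 lower and the luminal scaling 2 lower. Leaving out 1 library gave 0 to 1 higher (Tp63 without control 1). Over all genes, 334 were called higher and 124 lower, so 72.9% of calls were higher. DESeq2 gave 904 and 588 (60.6% higher), limma on log2(FPKM + 1) 163 higher (60.8%), limma on log2(FPKM + 0.1) 183 higher (58.7%), and the luminal scaling 845 lower (31.0% higher), with the median of all genes at -0.24. That median was -0.11 for log2(FPKM + 0.1). Without 1 library, 51 to 313 were higher and 12 to 156 lower.

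Titles share the numbers 1 to 3, but deviations of same-numbered libraries from their group means correlated at 0.083, -0.057 and 0.070, and control 2 correlated best with hormone 1, so the numbers were not taken to pair libraries. The replicate block gave 228 higher and 80 lower genes.

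Grhl2, Sox2, Sox9, Gata3 and Tp63 kept their sign in all 14 alternatives. The sign turned for 4 factors near 0. Under the luminal scaling Foxa1 had -0.10, Ehf -0.14, Elf3 -0.17 and Klf4 -0.10. With limma Ehf had -0.0039 and -0.0037, and Elf3 -0.077 and -0.087, for added constants of 1 and 0.1. Without 1 library, Foxa1 ranged from -0.10 to 0.31, Ehf from -0.24 to 0.39, Elf3 from -0.28 to 0.42 and Klf4 from -0.029 to 0.30. The causes were not tested. Of 476 list counts under alternatives, 421 were within 1.5 times the main count, 29 were higher and 26 lower. Most main list counts were 0 and could not fall, and a 0 that stayed 0 is among the 421. That number therefore says little about how stable the calls were. At 3 libraries a group the 95% intervals allow changes such as 0.89 for Ehf, so calls that were not made do not show equal levels.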
